A study of Homo sapiens with 2 samples.

Results

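The genes of Wnt/β-catenin signalling were examined in a chromatin immunoprecipitation sequencing (ChIP-seq) peak list of MHCC-97H, a line derived from human hepatocellular carcinoma (HCC), in which the cells overexpressed HA-tagged RFX6 from a plasmid. RFX6 belongs to the RFX family of DNA-binding transcription factors. The series holds 1 HA-RFX6 ChIP library and 1 input library of the same line, so there was no replicate and no test, and the read depth is unknown. A precipitation from cells without HA-RFX6 was not analysed here, and the sources used here do not say if peaks were called against the input. The 60 genes code for Wnt ligands, their receptors, the destruction complex and the nuclear effectors, of 20037 protein-coding genes in all. They were chosen by pathway, with the high score of the LRP6 interval in view, so the LRP6 value is a description and supports nothing. Other earlier results of these data were also known at the choice, so the shares below describe the list and were not tested. All 60 were found in the gene table, and the list held 5019 distinct intervals on chromosomes 1 to 22 and X.

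Wnt ligands are secreted glycoproteins that bring a Frizzled receptor and the co-receptor LRP5 or LRP6 together at the cell surface. Without a ligand, a destruction complex built on AXIN and APC lets casein kinase 1 and GSK3 phosphorylate β-catenin, which is then ubiquitinated and degraded. With a ligand, dishevelled blocks this complex, and β-catenin enters the nucleus to act with TCF/LEF factors. In the liver, the pathway sets the gene programme of hepatocytes around the central vein, and activating changes in it are frequent in HCC.

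An interval was assigned to a gene when its midpoint lay within 1 kb of either annotated gene end, or elsewhere in the gene. Of the 60 genes, 17 had an interval at an end (28.3%, 95% Wilson interval 18.5% to 40.8%). The background over all protein-coding genes was 15.5%. A further 6 genes had an interval in the body only, which made 23 genes (38.3%, 27.1% to 51.0%) against a background of 19.5%. The remaining 37 genes had none. By distance to the nearest gene end, the members closest to the 1 kb limit were LGR4 (682 bp) inside it and DVL3 (1366 bp), WNT11 (1446 bp) and WNT7B (1683 bp) outside it. The pathway genes were longer than most, with a median of 48.8 kb compared with 24.1 kb over all protein-coding genes, and the part of gene length in these counts was not tested. The Wilson intervals cover the counting of genes only, and genes are not replicates.

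The score is a whole number that the authors deposited without naming its unit, so it was used only to rank. At the 17 genes there were 20 end intervals, with a median score of 39 and a range from 16 to 113. The 3054 intervals at ends of any protein-coding gene had a median of 32, and over all 5019 intervals the median was 30 (quartiles 22 and 39). Of the 20, 16 scored at or above the median of the list, compared with 1744 of the 3054 (57.1%). LRP6 is among the 16. The 7 intervals found in gene bodies had a lower median of 27.

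**Figure D1:**
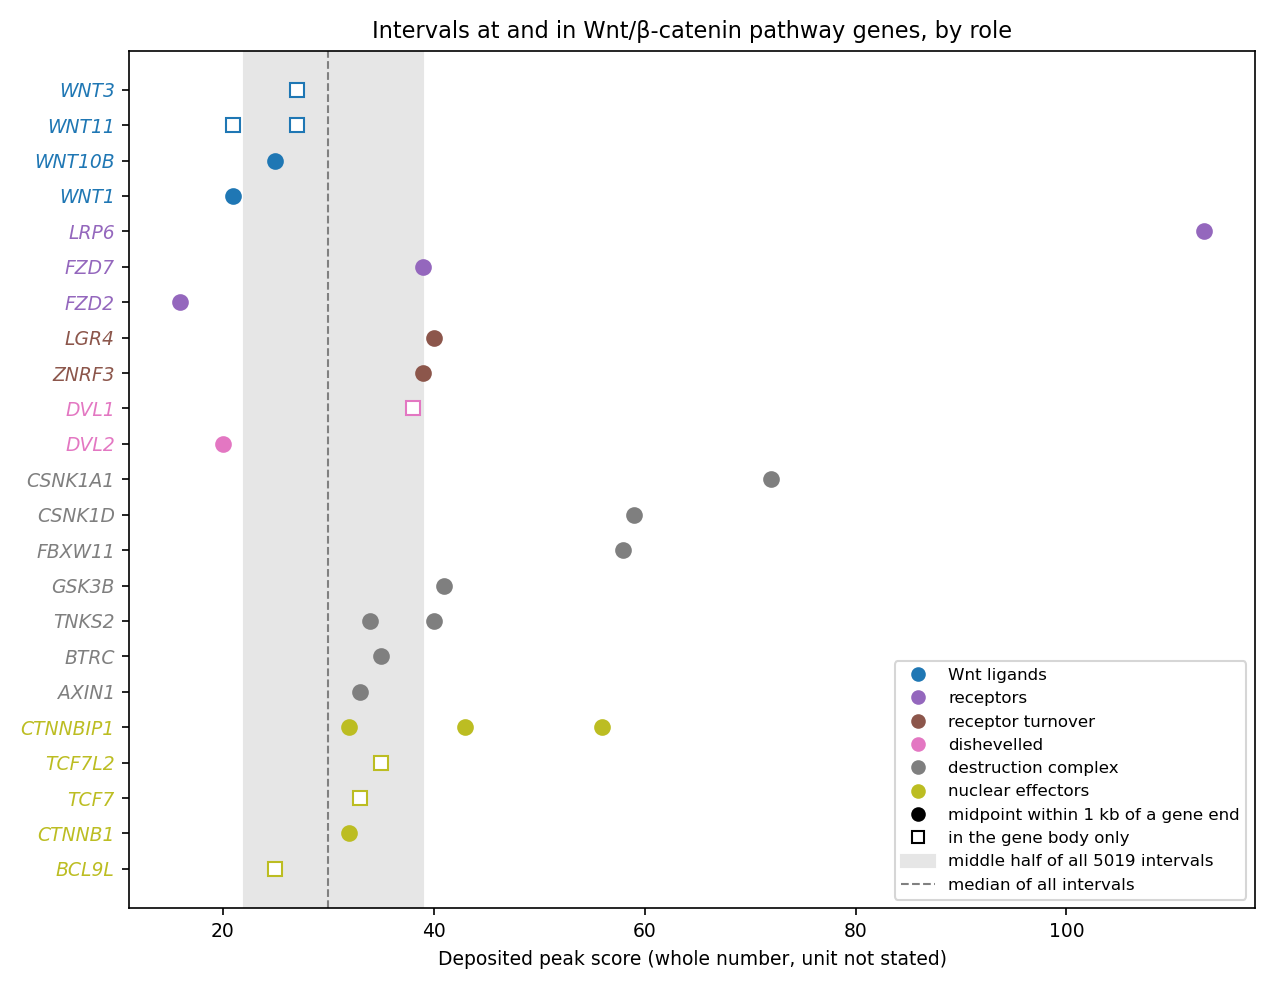
Deposited peak score (x axis, unit not stated) of every interval at or in a Wnt/β-catenin pathway gene, by gene and role. Filled circles are intervals at a gene end, open squares lie in the body only, the grey band runs between the quartiles of all 5019 intervals (22 and 39) and the dashed line is their median. LRP6 stands alone at 113, the 5 ligand intervals lie below the median, and all 8 destruction complex intervals lie above it.

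Receptors were examined first. LRP6, the co-receptor that is phosphorylated upon ligand binding and then recruits AXIN, had an interval at chr12:12266805-12267510 (GRCh38, as are all positions given), which was 706 bp wide. It spanned the high-coordinate end of the gene, with its midpoint 113 bp outside, and no other protein-coding gene had an end within 1 kb. The interval was listed on 2 lines whose scores were 113 and 17, and by the higher it ranked 4 of 5019. It was also the widest of the 27 intervals at or in the pathway genes. LRP5, the paralogue of LRP6, had no interval.

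The Frizzled genes code for the membrane receptors that bind the ligand itself. Of the 8 Frizzled genes, 2 had an interval at an end, FZD7 and FZD2, against a background of 15.5%. FZD1, FZD3, FZD4, FZD5, FZD6 and FZD8 had none. With so few genes, this count is a description only. The FZD7 interval (chr2:202033934-202034376) scored 39 and lay inside the gene, 300 bp from its low-coordinate end. At FZD2, the interval (chr17:44557616-44557936) scored 16, the lowest among the pathway genes, and lay 292 bp inside. The lowest score among the pathway genes thus lay in the receptor layer. The highest lay there too, but it is that of LRP6, which was in view when the genes were chosen.

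Receptor turnover is set by the membrane ubiquitin ligases RNF43 and ZNRF3, which remove Frizzled from the surface, and by the R-spondin receptors LGR4 and LGR5, which counter them. In each pair, 1 gene had an interval. ZNRF3 had it at chr22:28883447-28883757, with 39 as its score and a midpoint 30 bp inside the low-coordinate end. LGR4 had it at chr11:27471974-27472242, listed on 2 lines with the same score of 40, 682 bp downstream of the gene start and within LGR4-AS1. RNF43 and LGR5 had none.

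The ligand intervals had low scores. Of 9 ligand genes, WNT10B and WNT1 had an interval at an end (22.2%, background 15.5%) and WNT3 and WNT11 in the body, which made 4 of 9 (44.4%, background 19.5%), while WNT2, WNT3A, WNT5A, WNT5B and WNT7B had none. WNT10B and WNT1 are neighbours on chromosome 12. The WNT10B interval (chr12:48971012-48971322) scored 25 and lay 568 bp inside the high-coordinate end. The WNT1 interval (chr12:48982025-48982245) scored 21 and lay at the far end of the gene, 3813 bp downstream of the start. It was thus the only end interval not at the start, among the genes whose start is known. WNT11 had an interval with a score of 21 and another with a score of 27, the latter 1446 bp inside its high-coordinate end. The WNT3 interval, with a score of 27, lay 46660 bp downstream of the start, where the annotation also places LRRC37A2. All 5 ligand intervals scored below the median of the list, while 52.2% of all 5019 intervals scored at or above it. Those of WNT3 and WNT11 lay in bodies, where intervals of the pathway genes had a median of 27, against 39 at ends.

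No interval was listed at the secreted inhibitors DKK1, DKK3, SFRP1 and WIF1, of which DKK1 blocks LRP6 and SFRP1 and WIF1 bind ligands. This was 0 of 4 genes, with an upper Wilson bound of 49.0% and a background of 19.5%. The R-spondins RSPO1 and RSPO3, which stabilise the receptors, had none either. The same held for PORCN, the acyltransferase that lipidates Wnt ligands, and WLS, the carrier that takes them to the cell surface. USP6NL, a GTPase-activating protein of RAB GTPases that stands outside the core pathway, also had none.

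Downstream of the receptors, dishevelled was examined. DVL2 had a 212 bp interval at chr17:7234441-7234652. Its score was 20, its midpoint lay 29 bp upstream of the start, and PHF23 also had an end within 1 kb. DVL1 had an interval with a score of 38 in the body, 4428 bp downstream of the start. The interval closest to DVL3 lay 1366 bp beyond the gene, at an end of AP2M1, and was not counted.

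The destruction complex had the largest share of genes with an end interval among the roles, with an end interval at 7 of 13 genes (53.8%, 29.1% to 76.8%). The background was 15.5%, and the difference between roles was not tested. All 8 of its intervals, 2 of them at TNKS2, scored above the median of the list. Of the intervals at ends of any protein-coding gene, 57.1% scored at or above it. CSNK1A1, the kinase that primes β-catenin for GSK3, had an interval at chr5:149551269-149551655. Its score of 72 ranked 112 of 5019, and its midpoint lay 23 bp upstream of the start. It also overlapped ARHGEF37. CSNK1D, a kinase that acts on dishevelled and LRP6, scored 59 at chr17:82273227-82273658. Its paralogue CSNK1E had no interval.

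The β-TrCP ubiquitin ligases, which mark phosphorylated β-catenin for degradation, are encoded by BTRC and FBXW11, and both had an interval at an end. FBXW11 had it at chr5:172006433-172006984, on 2 lines with scores of 58 and 37. At BTRC it lay at chr10:101354210-101354437 and scored 35. GSK3B, which phosphorylates β-catenin after priming, had an interval at chr3:120093855-120094140 that scored 41, 450 bp downstream of the start. Its paralogue GSK3A had none.

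AXIN1, the scaffold, had an interval at chr16:353044-353465 that scored 33, outside the gene and 531 bp upstream of the start. AXIN2, a scaffold that is induced by the pathway, had none. TNKS2, a tankyrase that destabilises AXIN, had intervals with scores of 40 and 34, at chr10:91798378-91798640 and chr10:91798786-91799010. TNKS had none, and neither APC nor APC2 had an interval. In the pairs CSNK1D and CSNK1E, GSK3B and GSK3A, AXIN1 and AXIN2, and TNKS2 and TNKS, only the former was listed.

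Among the nuclear effectors, 2 of 12 genes had an interval at an end (16.7%, 4.70% to 44.8%), close to the background of 15.5%. With bodies included it was 5 of 12 (41.7%, 19.3% to 68.0%) against 19.5%. CTNNB1, which codes for β-catenin, had a 207 bp interval at chr3:41199480-41199686. Its score of 32 was near the median of the list, and it spanned the start. CTNNBIP1 codes for a small protein that keeps β-catenin from TCF factors, and it had 3 intervals, more than any other gene of the pathway. They lay at chr1:9909767-9909966, chr1:9910144-9910496 and chr1:9910568-9910896, and their scores were 43, 56 and 32. The strongest of the 3 spanned the start.

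Of the 4 TCF/LEF genes, none had an interval within 1 kb of its annotated ends. TCF7L2 had an interval with a score of 35 deep in the body, 123770 bp downstream of the start. At TCF7, an interval (chr5:134114640-134114982) that scored 33 lay 6593 bp inside the annotated gene. The start used in the RefSeq promoter table is an internal one, and the interval lay 802 bp upstream of it. VDAC1 also had an end within 1 kb. BCL9L, a co-activator of β-catenin, had an interval with a score of 25 in the body. TCF7L1, LEF1, BCL9, PYGO1, PYGO2, TLE1 and TLE3 had none.

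Next, secreted and intracellular parts were set side by side. Ligands and secreted inhibitors had an end interval at 2 of 13 genes (15.4%, 4.33% to 42.2%), and intracellular parts at 10 of 28 (35.7%, 20.7% to 54.2%). For the 14 receptor and turnover genes the share was also 35.7% (16.3% to 61.2%), but it counts LRP6, whose score was in view at the choice. The background was 15.5% at ends and 19.5% with bodies included. The Wilson intervals of the secreted and intracellular genes overlapped. Genes are not replicates, and the difference in share was not tested. With bodies included, the shares were 4 of 13 (30.8%, 12.7% to 57.6%) and 14 of 28 (32.6% to 67.4%), which overlapped as well. The 2 secreted end intervals scored 25 and 21. The 13 intracellular end intervals came from 10 genes, with 3 at CTNNBIP1 and 2 at TNKS2, and their median was 40. Of these intervals, 12 scored at or above the median of 30, compared with 57.1% of intervals at the ends of all protein-coding genes. The exception was DVL2, whose score of 20 was below both secreted values, so the ranges overlapped.

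**Figure D2:**
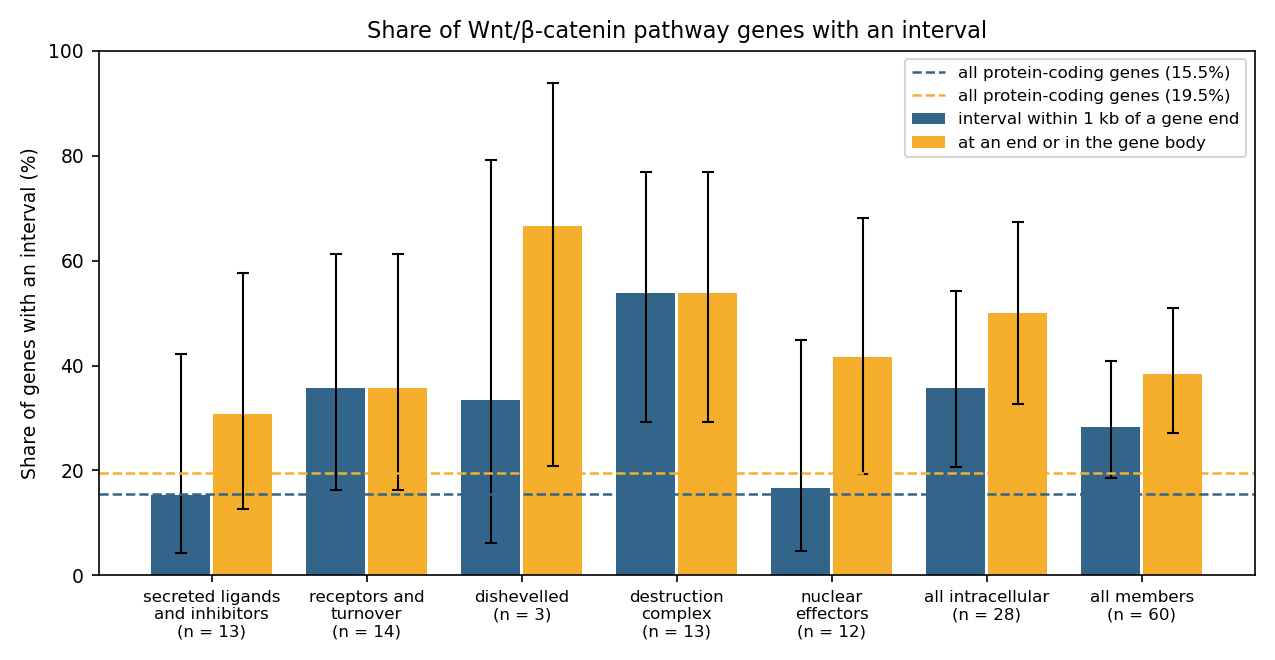
Share of genes (y axis, in percent) with an interval at a gene end (blue) or at an end or in the body (yellow), by role, with the number of genes under each label. Error bars are 95% Wilson intervals, which cover the counting of genes only, and dashed lines give all protein-coding genes (15.5% and 19.5%). The destruction complex reached 53.8% at gene ends, while secreted genes and nuclear effectors lay at 15.4% and 16.7%.

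The position of the intervals around the start was then examined in the 43 genes that the RefSeq promoter table holds. An interval lay within 1 kb of the start of 10 genes (23.3%), compared with a background of 15.3% of the 15842 protein-coding genes in that table. The far end had an interval in 1 of the 43 genes (2.33%), WNT1, compared with 1.15% of the 15842 genes. The 13 intervals had midpoints from 802 bp upstream at TCF7 to 682 bp downstream at LGR4. Of these, 6 lay within 100 bp of the start, namely 1 each at CTNNBIP1, FBXW11, DVL2, CSNK1A1, CTNNB1 and TNKS2, which made 46.2% compared with 27.4% over all 2491 intervals near a start. The median distance to the start went the other way, with 403 bp at the pathway genes and 184 bp over all. Upstream midpoints made up 7 of the 13 (53.8%), compared with 37.1% over all, and CTNNBIP1 contributed 3 of the 13.

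**Figure D3:**
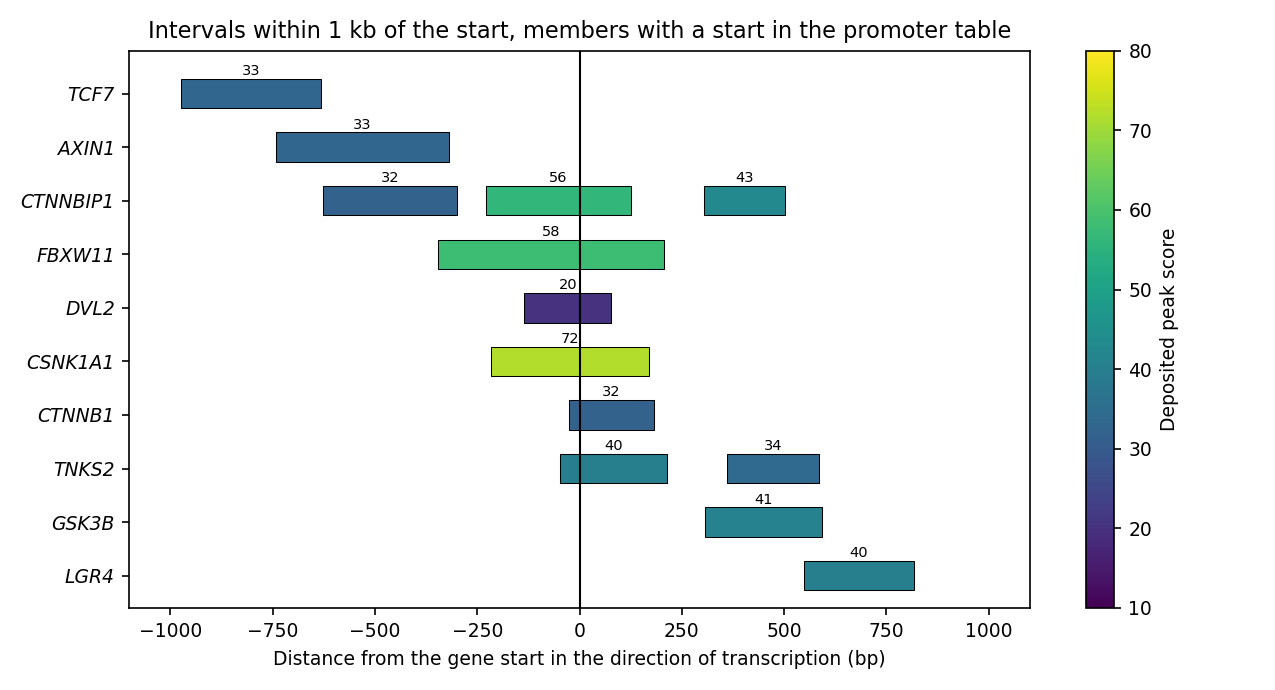
Intervals within 1 kb of the start (x axis, bp from the start in the direction of transcription) for the 10 pathway genes with such an interval and a start in the promoter table. Each bar is 1 interval drawn to its width, coloured and labelled by score. The bars of CSNK1A1, FBXW11, DVL2, CTNNB1, TNKS2 and CTNNBIP1 cross the start, and those of TCF7, AXIN1, GSK3B and LGR4 lie to 1 side.

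Upstream sequence under an interval is shown for the 5 genes where more than 40 of the 250 upstream bases in the RefSeq promoter table were covered, since these are the promoter bases that the peaks cover. The intervals of AXIN1 and TCF7 lie farther upstream than that table reaches. The bases come from RefSeq (GRCh38.p14), run 5′ to 3′ in the direction of the gene, and end at the base before the start. Each begins at the outer edge of the interval, except that of FBXW11, whose interval reaches beyond the 250 bases in the table. Capitals mark GTTGCC (the core word of RFX sites), CCAAT (the CCAAT box) and CACGTG (the E-box), on either strand.
CSNK1A1, GRCh38 chr5:149551440-149551655, minus strand: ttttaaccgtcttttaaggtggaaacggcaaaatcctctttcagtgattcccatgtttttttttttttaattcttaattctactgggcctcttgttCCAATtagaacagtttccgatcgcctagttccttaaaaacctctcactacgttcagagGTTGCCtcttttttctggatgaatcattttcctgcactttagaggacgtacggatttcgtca
CTNNBIP1, GRCh38 chr1:9910270-9910496, minus strand: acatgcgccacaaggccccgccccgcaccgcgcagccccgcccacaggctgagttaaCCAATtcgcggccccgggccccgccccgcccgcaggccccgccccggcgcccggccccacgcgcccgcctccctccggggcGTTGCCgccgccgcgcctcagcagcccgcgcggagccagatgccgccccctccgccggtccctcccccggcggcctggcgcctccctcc
FBXW11, GRCh38 chr5:172006639-172006888, minus strand: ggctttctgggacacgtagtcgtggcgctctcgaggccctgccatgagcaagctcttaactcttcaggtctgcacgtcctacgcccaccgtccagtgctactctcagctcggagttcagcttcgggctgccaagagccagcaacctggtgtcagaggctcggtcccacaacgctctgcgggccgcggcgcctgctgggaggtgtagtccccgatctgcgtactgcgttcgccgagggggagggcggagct
DVL2, GRCh38 chr17:7234518-7234652, minus strand: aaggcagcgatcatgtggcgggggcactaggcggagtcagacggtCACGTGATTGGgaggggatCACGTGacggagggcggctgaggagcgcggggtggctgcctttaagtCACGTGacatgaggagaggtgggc
TNKS2, GRCh38 chr10:91798378-91798425, plus strand: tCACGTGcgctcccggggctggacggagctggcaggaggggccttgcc

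The stretches differed widely in composition. That of CSNK1A1 had 38.4% G+C and 8 CpG dinucleotides in 216 bases, with long runs of T. That of CTNNBIP1 had 82.8% G+C and 34 CpG in 227 bases. GTTGCC stood 57 bases before the start of CSNK1A1 and 84 bases before that of CTNNBIP1, and each gene also had a CCAAT box farther upstream. At DVL2 the E-box CACGTG occurred 3 times, the first of them directly next to an inverted CCAAT box, so that they form 1 run of capitals. The stretch of FBXW11 held none of these words, and that of TNKS2 held 1 E-box. These stretches cover 250 of the 552 bp of the FBXW11 interval and 48 of the 263 bp of the TNKS2 interval.

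These words were then counted in the whole promoter windows, 250 bases before to 50 after the start, on both strands. GTTGCC occurred in 2 of the 10 pathway promoters with an interval at the start, CSNK1A1 and CTNNBIP1, and in 0 of the 33 without. Over all 15842 promoters the share was 12.8%, and of the 2424 with an interval at the start, 314 held it. GTTGCC can be part of the full X-box, which is counted apart. The full X-box, the palindromic consensus of the RFX family, occurred in 0 of the 43 pathway promoters and in 1.56% of all promoters. It was found in 1.73% of promoters with an interval. CCAAT occurred in 5 of the 10 and 12 of the 33 promoters, in 35.8% of all and in 36.5% of all with an interval at the start. CACGTG occurred in 2 of the 10 and 3 of the 33, in 8.45% of all and in 11.0% of all with an interval. CCGGAAG, an ETS site, occurred in 1 of the 10 (AXIN1) and 2 of the 33, in 13.8% of all and in 20.2% of all with an interval. ATGGCGG, a YY1 site, occurred in 2 of the 10 (LGR4 and TNKS2) and 2 of the 33, in 7.58% of all and in 11.4% of all with an interval. CTTTGA, the word of TCF/LEF factors, occurred in 1 of the 10 (CSNK1A1) and 2 of the 33, in 11.2% of all and in 8.04% of all with an interval. TGACGTCA, the cyclic AMP response element, occurred in 0 of the 10 and 1 of the 33 (DVL1), in 2.49% of all and in 3.30% of all with an interval. GGGCGG, the word of SP factors, occurred in 6 of the 10 and 24 of the 33, in 56.7% of all and in 74.9% of all with an interval. None of the shares among the 10 rests on more than 6 genes.

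G+C content and CpG count differed little between the pathway promoters with an interval and those without. The median G+C content was 67% in the former and 68% in the latter. The median number of CpG per window was 30 in the former and 29 in the latter. Over all protein-coding genes the medians were 29 in the 2424 promoters with an interval and 19 in the 13418 without. The pathway promoters without an interval thus had as many CpG as promoters with an interval in the whole list. In the pathway promoters, the median ratio of observed to expected CpG was 0.911 with an interval and 0.8 without. Over all protein-coding promoters the ratio was 0.863 and 0.704, and the differences were not tested. Promoters such as those of DVL1 (58 CpG), LRP5 (52) and WNT3A (49) were among the richest and had no interval at the start. CSNK1A1, with 10 CpG, was the poorest in G+C of the 43.

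**Figure D4:**
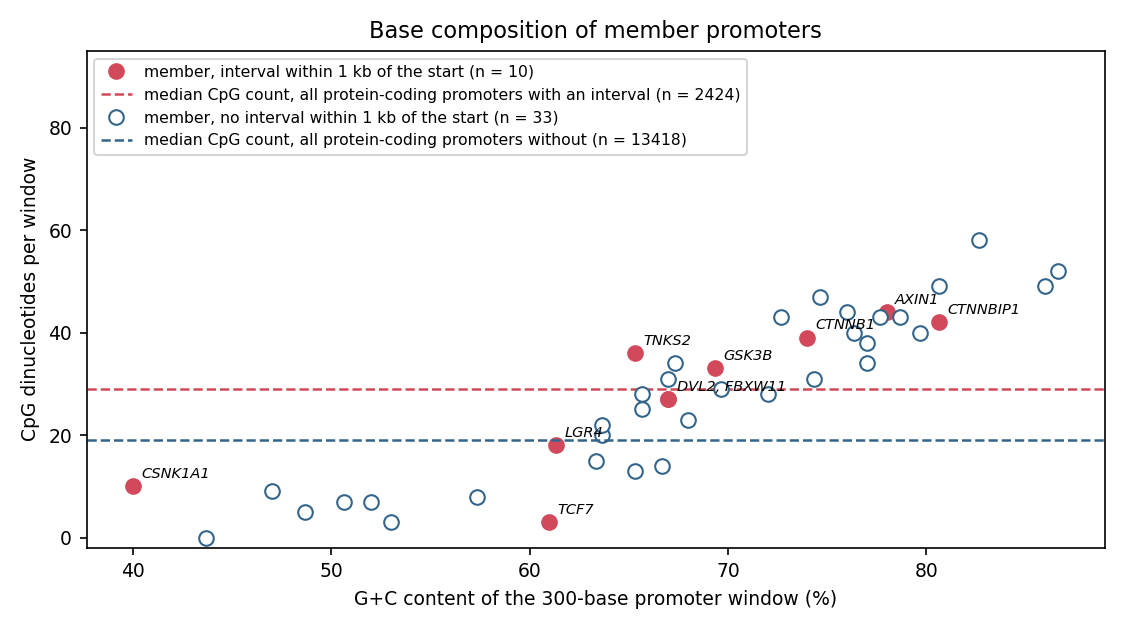
CpG dinucleotides per 300-base promoter window (y axis) against its G+C content (x axis, percent) for the 43 pathway genes in the promoter table. Red points have an interval within 1 kb of the start (n = 10), open blue points have none (n = 33), and dashed lines are the median CpG counts of all protein-coding promoters with (29) and without (19) an interval. Red and blue points overlap over most of their range, with DVL1, at 58 CpG, the highest blue point and CSNK1A1, at 10 CpG, the leftmost red one.

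Gene length was compared in the same way. Pathway genes with an end interval had a median length of 62.0 kb, those with a body interval only 34.9 kb, and those with none 47.6 kb. Their ranges overlapped, from 3.78 to 273 kb, from 14.1 to 217 kb and from 3.38 to 226 kb, respectively. Over all protein-coding genes the medians were 28.7, 47.4 and 22.5 kb.

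**Figure D5:**
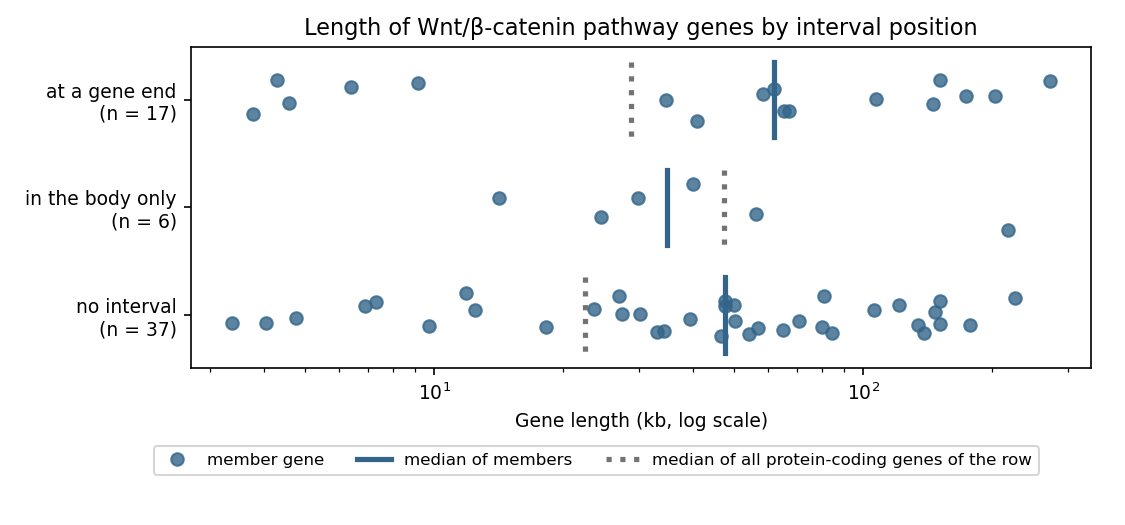
Gene length in kb (x axis, log scale) of the 60 pathway genes by the position of their interval, 1 point per gene, shifted vertically for visibility. Solid lines are the medians of the pathway genes (62.0, 34.9 and 47.6 kb) and dotted lines those of all protein-coding genes of the same row (28.7, 47.4 and 22.5 kb). The 3 rows overlap over most of their range.

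Finally, 87 further genes of the pathway and its branches were looked up. Of these, 21 had an interval at an end (24.1%, 16.4% to 34.1%), against the background of 15.5%. Cytoplasmic regulators had an end interval at 9 of 21 genes (42.9%, 24.5% to 63.5%), and nuclear regulators at 2 of 13 (15.4%, 4.33% to 42.2%). Joined as in the intracellular class above, they had 11 of 34 (32.4%, 19.1% to 49.2%). Other ligands had 2 of 10 (5.67% to 51.0%). The 13 genes listed as other secreted regulators had 1 (7.69%, 1.37% to 33.3%), KREMEN2. Without the membrane proteins KREMEN1 and KREMEN2, the other 11 had 0, for which the upper Wilson bound was 25.9%. The Wilson intervals of these groups overlapped, and differences between their shares were not tested. KREMEN1 and KREMEN2 code for membrane receptors of DKK proteins, and the latter had an end interval. The casein kinase 1γ genes, whose products phosphorylate LRP6, all had an interval at an end. Their highest scores were 63 at CSNK1G1, 45 at CSNK1G2 and 56 at CSNK1G3. Together with CSNK1A1 and CSNK1D, 5 of the 6 casein kinase 1 genes looked up had one, against the background of 15.5%, and CSNK1E was the exception. The highest score at each was 45 or more, and for scores of at least 40 the background was 4.97%. The family was not among the groups planned beforehand but was joined from both lists. Both comparisons with the background are thus a description only, and neither was tested. At CSNK1G2 the end interval lay 264 bp outside the gene and overlapped LOC105372238, and that of CSNK1A1 overlapped ARHGEF37.

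The catalytic subunit gene of protein phosphatase 2A, PPP2CA, had an interval with a score of 79, the highest of the 87 genes. Its regulatory subunit gene PPP2R5A had intervals with scores of 40 and 32. CSNK2B, a subunit of casein kinase 2, had scores of 42 and 20, and both intervals overlapped GPANK1. The other intracellular regulators with an end interval were SENP2 (score 56), AMER1 (24, beside LOC112268307) and CACYBP (17). WNT4, a ligand of the kidney and the reproductive tract, had an interval with a score of 72, 298 bp upstream of the start, which was above all ligand intervals among the 60 genes. WNT9A had a score of 22 at its end and another of 37 in its body.

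In the remaining groups, the cadherin partners CTNNA1 and JUP had scores of 43 and 49, and CDH1 and CTNND1 had none. Of the 9 planar polarity genes, CELSR3 (score 63) and CELSR2 (27) had an end interval (22.2%), the former at its far end and beside SLC26A6. The remaining end intervals were at LGR6 (score 27), KREMEN2 (18, beside PAQR4), TLE5 (32) and CREBBP (13). Among 10 known target genes of the pathway, TBX3 (39) and FOSL1 (34) had one, the latter overlapping CCDC85B. MYC, CCND1, SP5, GLUL, CYP2E1, CYP1A2 and PPARD had no interval at an end or in the gene, and JUN had one in the body with a score of 27.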

How the data were processed

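The study performed ChIP-seq with an anti-HA antibody in MHCC-97H cells. The submitters' processing notes name MACS2 2.1.0.2. The authors deposited 1 peak list, whose score column is a whole number of unstated unit. The aligner is not given in the sources used here. The notes also name GRCh37, but 3054 of 5019 interval midpoints lay within 1 kb of a gene end in GRCh38.p14, whereas shifting all intervals 20 kb lower or higher left 384 and 407 there, so GRCh38 was used. Of 6214 lines, 1 was repaired, identical positions were counted once at their highest score, and 3 mitochondrial intervals were left out. Starts were read as 0-based and are printed 1-based. Genes came from RefSeq. Starts and sequences came from its promoter table, which held 43 of the 60 members and 15842 coding genes. Members and lists were chosen with earlier results of these data known. Every member with an interval was named with its values. Also named were genes with an end beside a member interval and every gene of the other lists with an end interval. The assignment was tested on simulated data. Python 3.11.15, numpy 2.4.6, pandas 2.3.3, scipy 1.17.1 and matplotlib 3.10.9 were used. Alternatives were other score thresholds, windows of 500 bp, 2 kb and 5 kb, merging, any overlap, the nearest coding end and the start alone.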

Additional observations from a re-analysis of the deposited data

How the results depend on the processing

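The counts were recomputed under 10 alternatives. Members with an end interval, 17 in the main count, fell to 8 for scores of at least 40 and to 10 when only known starts were used. For scores of at least 40, 13.3% of members had one compared with 4.97% of all coding genes. These 8 members include LRP6, whose score was in view when the genes were chosen. Members with an interval at an end or in the body, 23, fell to 8 at that score (13.3%, background 6.19%). Ligands and inhibitors, 2 of 13, fell to 0 for scores of at least 30 and of at least 40 and for starts alone. With a window of 500 bp they fell to 1. The backgrounds at these settings were 9.50%, 4.97%, 15.3% and 13.3%. With 13 genes, and 8 for starts alone, such counts are too small to set apart from the background, and none was tested. Ligands and inhibitors rose to 4 with windows of 2 kb and 5 kb, where WNT11 and WNT7B were added. That was 30.8%, with backgrounds of 17.2% and 19.8%. Intracellular members, 10, fell to 6 for scores of at least 40 (21.4%, background 4.97%). Receptors and turnover members, 5, fell to 2 at that score (14.3%, background 4.97%), of which LRP6 is 1. For starts alone they fell to 1 (14.3%, background 15.3%), where 7 of 14 genes could be used and LRP6 could not. The further pathway genes, 21, fell to 11 for scores of at least 40 (12.6%, background 4.97%). A stricter score, a smaller window or fewer usable genes lowers a count by construction. All other counts stayed within 1.5 times. The start alone gives no body count. No paired analysis was possible because 1 library gave the list. Without read depth, a gene with no interval cannot be told from one with too few reads.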

Other observations

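Beyond the gene windows, 21 further intervals lay up to 25 kb outside a pathway gene. The same count was not made for all protein-coding genes, so these numbers have no background and are a description only. Of these, 11 had no protein-coding gene end within 1 kb, and 8 of the 11 overlapped no annotated gene, beside 6 pathway genes. The highest scores among the 8 stood beside 3 genes. An interval with a score of 63 lay 13126 bp beyond BTRC, on chromosome 10 from 101570241 to 101570638. Another with a score of 58 lay 11418 bp upstream of WNT5B, on chromosome 12 from 1605515 to 1605761. The last, with a score of 55, lay 23310 bp outside WNT7B, on chromosome 22 from 46000319 to 46000626. Those beside WNT5B and WNT7B scored above every interval at or in the 9 ligand genes, whose highest score was 27. WNT5B and WNT7B themselves had no interval. Which gene these intervals belong to was not tested.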
